A study of Mus musculus with 27 samples.

Results

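The 10 genes described here encode the A20 (Tnfaip3) protein, its partners and the neighbouring TRAF and IAP proteins, which add, remove or read ubiquitin chains below the Toll-like and TNF receptors. They were chosen by name from a list of regulators of this pathway, as Tnfaip3, Cyld, Tnip1, Tnip3, Traf1, Traf2, Traf3, Traf6, Birc2 and Birc3, and they are 10 of the 45070 genes in the table. The choice was made with earlier results of these data known. Counts of members set beside the share of all genes therefore describe the members and are not a test of them. All 10 were among the 13901 genes that were tested, having 10 or more normalised read counts in 3 or more samples.

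Chromatin-associated RNA, the fraction of RNA still held on chromatin and rich in unspliced, newly made transcripts, was sequenced from wild type mouse bone marrow-derived macrophages (BMDMs). The 27 samples formed 9 groups of 3 replicates, namely untreated cells and cells collected 0.5, 1, 2 and 4 h after LPS or IL-4, each at 10 ng/ml. Every group, the untreated one included, had received the vehicle DMSO for 1 h beforehand, and the cells came from male C57/BL6 mice. LPS is the bacterial ligand of TLR4 and IL-4 the cytokine of alternative macrophage activation, so the design asks how each stimulus changes transcription over time and how the responses differ.

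In resting macrophages the adaptor proteins of the TRAF family wait to be recruited to receptor complexes, where those with a RING domain, together with the cIAP ligases, build ubiquitin chains that recruit and activate kinases of the NF-κB and MAP kinase routes. A20 and CYLD take such chains apart or edit them, and the TNIP (ABIN) proteins bind both A20 and ubiquitin. Several of these genes are themselves textbook NF-κB targets, which makes the group a set of feedback inhibitors and signal carriers in the same circuit.

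The values are the authors' normalised read counts, rounded to whole numbers. They are not raw counts, so sequencing depth is unknown from them, and their sums over genes ran from 2469770 to 2790980 in untreated and IL-4 samples and from 3571490 to 4058200 in LPS samples. Differences are given as log2 fold changes of the value plus 1, with their standard error (SE), from limma, and are called where the Benjamini-Hochberg adjusted p over all tested genes is under 0.05. This scale understates the change of low genes. On it the median of all tested genes lay below untreated at every LPS time, in time order -0.24, -0.30, -0.29 and -0.26, so a member with no change on this scale stood above the median gene. The 8 macrophage markers summed to between 10027 and 11141 in untreated, 11122 and 19679 in LPS and 10976 and 14044 in IL-4 samples. Single markers moved in both directions. Over all samples the lowest values of Csf1r, Mertk, Itgam and Lyz2 were 427, 597, 211 and 221, below untreated minima of 1814, 1785, 679 and 842. Each of these also exceeded its untreated maximum in some sample. Adgre1, the largest part of the sum, ranged from 4051 to 12142. Cd3e and Cd3g of T cells and Ly6g of neutrophils were listed at 0 in every sample. The summed markers of other cells are given as ranges over the samples of each group. The 4 dendritic cell markers summed to between 6 and 9 in untreated, 5 and 98 in LPS and 11 and 24 in IL-4 samples, with Zbtb46 at up to 90. The 3 stroma markers summed to between 17 and 35, 12 and 103, and 10 and 79 in the same order, with Col1a1 at up to 95, and the 4 neutrophil markers to at most 2, 28 and 7, with S100a8 at up to 16. The 4 T cell markers summed to at most 14 in any sample, the 3 B cell markers to at most 6 and the 3 mast cell or basophil markers to at most 3. The part of such cells in the results below was not tested, and in bulk samples more cells of a type cannot be told apart from more RNA per cell. Replicate 1 stood apart from the others in all groups. Among genes with a mean of at least 1000, the SD of the log2 ratio was 0.138 to 0.287 between replicates 2 and 3, and 0.370 to 0.496 between replicate 1 and either of them.

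The 300-base promoter windows of the members, from 250 bases before to 50 bases after the annotated start, were read from RefSeq (GRCm38.p6) for all 10 genes and searched on both strands. They are shown here because NF-κB is the factor most tied to this family. The κB consensus, a 10-base motif, was present in 5 of the 10 windows at the annotated gene starts, those of Tnfaip3, Cyld, Tnip1, Tnip3 and Traf3, and in 8.46% of the 32851 promoter windows of the genome. The matches with up to 10 flanking bases are printed below 5′ to 3′ on the strand of the gene, the κB letters in capitals. Tnfaip3 held a pair of matches, at chr10:19015516-19015545 and chr10:19015411-19015432 (minus strand). The windows of Cyld at chr8:88696863-88696892 (plus), Tnip1 at chr11:54962978-54963007 (minus), Tnip3 at chr6:65590334-65590363 (plus) and Traf3 at chr12:111166350-111166369 (plus) held the others. At Tnip1 the letters printed are the middle one of 3 overlapping matches.
Tnfaip3, 125 to 116 bases before the start: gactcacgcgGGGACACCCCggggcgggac
Tnfaip3, 12 to 3 bases before the start: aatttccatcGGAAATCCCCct
Cyld, 155 to 146 bases before the start: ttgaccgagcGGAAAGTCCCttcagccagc
Tnip1, 57 to 48 bases before the start: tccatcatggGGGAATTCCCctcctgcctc
Tnip3, 54 to 45 bases before the start: gagacatcctGGGAAATCCCagttacatgg
Traf3, 10 to 1 bases before the start: ggcggcccgcGGGGATTTCC

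The AP-1 letters TGANTCA, found in 7.81% of all windows, and the STAT6 letters TTCNNNNGAA, found in 6.95%, each occurred in 1 of the 10 windows, in both cases that of Tnfaip3. The interferon response letters GAAANNGAAA, found in 3.44% of all windows, occurred in none of the 10. A match describes letters and not a bound site, and the windows of Traf1, Traf2, Traf6, Birc2 and Birc3 held none of the 4 motifs within these 300 bases.

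LPS changed all 10 genes over its course, against 87.6% of all tested genes, by the moderated F test over the 4 times. The changes were mostly increases. At 0.5 h 9 members were higher and 1 was lower than untreated, where 19.6% of all genes were higher and 34.4% lower. The counts were 9 higher and 0 lower at 1 h (all genes 24.8% and 39%). They were 7 higher and 1 lower both at 2 h (26.9% and 39%) and 4 h (25.9% and 37.6%). The 10 members had a median log2 fold change of 2.22, 2.29, 2.71 and 2.73 at the successive times. At 1 h the member without a call was Cyld, with a log2 fold change of 0.01 and an unadjusted 95% interval from -0.38 to 0.40.

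IL-4 changed 5 of the 10 over its course, Tnip3, Traf6, Cyld, Tnip1 and Tnfaip3, against 40.3% of all genes. At 0.5 h 3 members were higher and 2 lower (all genes 8.15% and 8.14%), and at 1 h 2 were higher and 1 lower (11.1% and 9.83%). At 2 h 2 were higher and 0 lower (14.3% and 13.2%), and at 4 h 1 was higher and 0 lower (13.4% and 12.5%). Their median on the log2 scale stayed between -0.03 and 0.20, beside a median of all genes between -0.02 and 0.02. The number called over the IL-4 course fell to 2, Tnip3 and Traf6, when replicate 2 or replicate 3 was left out, and rose to 9 when replicate 1 was left out. Every LPS contrast and every IL-4 contrast uses the same 3 untreated samples, so the 2 courses are not independent of each other.

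Compared directly at the same time, LPS and IL-4 samples differed for 8, 8, 9 and 8 members in time order, where 53.8%, 64.5%, 68.6% and 68% of all genes differed. LPS was the higher in all 8 called members at 0.5 h and at 1 h, in 7 of 9 at 2 h and in 7 of 8 at 4 h. Of all genes called in these comparisons, LPS was the higher in 33.4%, 37.2%, 38.4% and 38.4% in time order. Traf3 at 2 and 4 h and Traf6 at 2 h were the members lower with LPS.

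**Figure D1:**
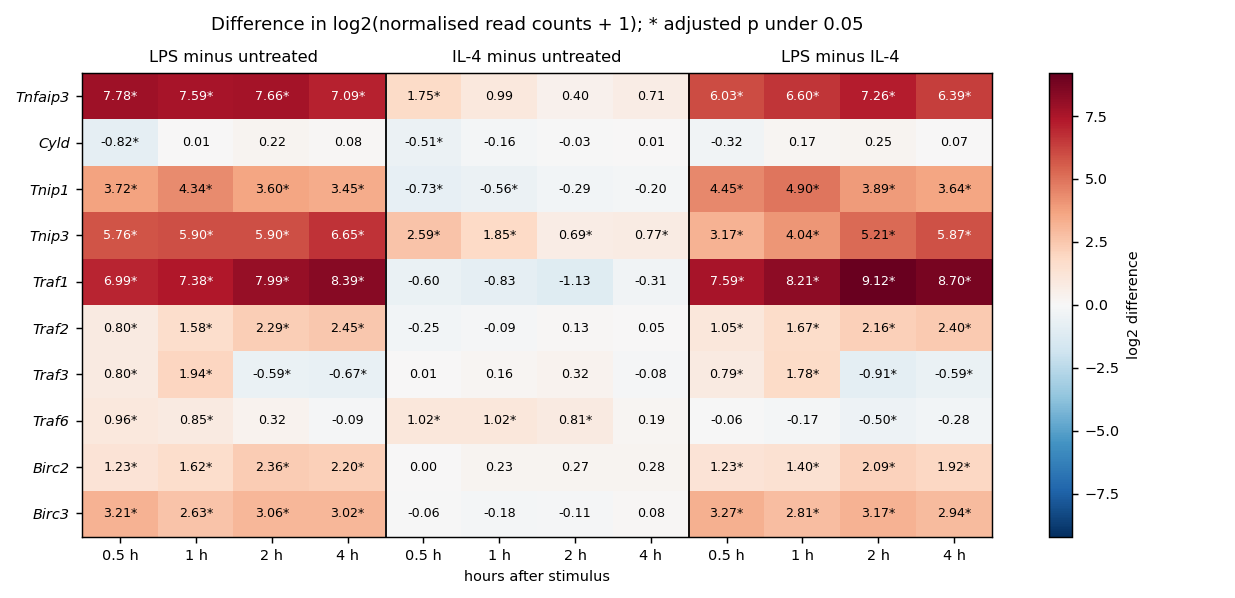
Log2 differences of normalised read counts plus 1 for each gene (rows) in LPS minus untreated, IL-4 minus untreated and LPS minus IL-4 at 4 times (columns), with the value in each cell, red for higher, blue for lower, and a star for an adjusted p under 0.05. The LPS block is red apart from Cyld, late Traf3 and late Traf6. The IL-4 block is pale apart from Tnip3 (2.59 at 0.5 h), Tnfaip3 (1.75 at 0.5 h), Traf6 and Traf1. The Traf1 value with IL-4 was -1.13 at 2 h, without a star.

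Tnfaip3 (chr10:19000910-19015410, minus strand) encodes A20, the ubiquitin-editing enzyme that restrains NF-κB signalling. Untreated samples held 28, 20 and 15 normalised read counts in replicates 1, 2 and 3. After LPS the values were 4890, 4708 and 4474 (0.5 h), 5167, 3643 and 3664 (1 h), 5002, 3572 and 4523 (2 h), and 3609, 2666 and 2574 (4 h). The LPS and untreated samples lay far apart at every time, and the lowest LPS sample was 2574.
Tnfaip3 means rose 223-fold at 0.5 h (log2 7.78, SE 0.20, adjusted p = 1.67e-13) and were still 140-fold above untreated at 4 h (log2 7.09, adjusted p = 3.13e-13). No step between successive LPS times passed the test. The step from 2 to 4 h had a log2 difference of -0.57 (adjusted p = 0.0584), which became a call with the replicate number as a block (adjusted p = 0.00211) and with replicate 1 left out (-0.62, adjusted p = 0.00182). It was also called with sample weights (-0.64, adjusted p = 0.00554), a pseudocount of 8 (adjusted p = 0.0376) and a mean of at least 50 (adjusted p = 0.0452). With replicate 1 left out the step from 0.5 to 1 h was also called (-0.33, adjusted p = 0.0392).

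IL-4 gave a much smaller and shorter rise of Tnfaip3. The values were 114, 63 and 49 (0.5 h), 66, 28 and 38 (1 h), 48, 22 and 19 (2 h), and 50, 31 and 25 (4 h). The 0.5 h samples all lay above the untreated range and the later groups overlapped it, and replicate 1 was the highest in each of the 9 groups.
Tnfaip3 rose 3.59-fold at 0.5 h of IL-4 (log2 1.75, SE 0.42, adjusted p = 0.0112), a call that was lost when replicate 2 (adjusted p = 0.161) or replicate 3 (adjusted p = 0.105) was left out. The later log2 differences from untreated were 0.99 at 1 h (adjusted p = 0.126), 0.40 at 2 h and 0.71 at 4 h (adjusted p = 0.261). With the replicate number as a block those at 1 h (adjusted p = 0.000681) and 4 h (adjusted p = 0.0065) were called, as were the declines from 0.5 to 1 h (-0.76, adjusted p = 0.0108) and from 1 to 2 h (-0.58, adjusted p = 0.0383). The 1 h difference was also called with replicate 1 left out (0.88, adjusted p = 0.0231) and in the fit of all 27 samples (adjusted p = 0.0466). LPS exceeded IL-4 for Tnfaip3 by 6.03, 6.60, 7.26 and 6.39 on the log2 scale at the 4 times, the largest adjusted p being 4.71e-13.

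Cyld (chr8:88697028-88751946, plus strand) encodes the other deubiquitinase of the list, which cleaves the chains that A20 and the TRAF proteins work on. Untreated samples held 359, 396 and 433 normalised read counts. The LPS values were 156, 257 and 275 (0.5 h), 348, 411 and 443 (1 h), 401, 512 and 471 (2 h), and 391, 402 and 463 (4 h). Every 0.5 h sample lay below every untreated sample, and the later groups overlapped the untreated one.
Cyld fell at 0.5 h of LPS (log2 -0.82, SE 0.18, adjusted p = 0.00141) and rose again from 0.5 to 1 h by 0.84 (adjusted p = 0.0014). From 1 h on its log2 differences from untreated were 0.01, 0.22 and 0.08. These later differences changed sign to -0.57, -0.44 and -0.53, each with an adjusted p under 0.05, when every library was scaled to the same total, and with median-of-ratios scaling Cyld was called higher at 2 h (0.46, adjusted p = 0.0217), so no direction is given for Cyld after 0.5 h.

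IL-4 was followed by a dip of Cyld at the same time. The values were 252, 303 and 281 (0.5 h), 321, 386 and 358 (1 h), 348, 409 and 406 (2 h), and 356, 443 and 400 (4 h). Only the 0.5 h group lay wholly below the untreated samples, and replicate 1 was the lowest of the 3 in each of the 9 groups.
Cyld fell at 0.5 h of IL-4 (log2 -0.51, SE 0.11, adjusted p = 0.00584), a call lost when replicate 2 (adjusted p = 0.063) or replicate 3 (adjusted p = 0.182) was left out. The return from 0.5 to 1 h was 0.35 (adjusted p = 0.0751), and was called with the replicate number as a block (adjusted p = 0.00237) and with replicate 1 left out (adjusted p = 0.0196). The direct difference between LPS and IL-4 was not called for Cyld at any time in the reported fit, and it depended on the scaling. With median-of-ratios scaling LPS was called higher at 1, 2 and 4 h (0.45, 0.52 and 0.35, adjusted p = 0.00677, 0.00239 and 0.0304), and with equal totals it was called lower at 0.5, 2 and 4 h (-0.70, -0.38 and -0.55, adjusted p = 0.000726, 0.038 and 0.00403). At 0.5 h it was -0.32 with an unadjusted 95% interval from -0.65 to 0.01 (adjusted p = 0.0994), and with the replicate block the differences at 0.5 h (adjusted p = 0.012) and at 2 h (0.25, adjusted p = 0.04) were called. Leaving out replicate 1 also gave a call at 2 h (0.27, adjusted p = 0.019).

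**Figure D2:**
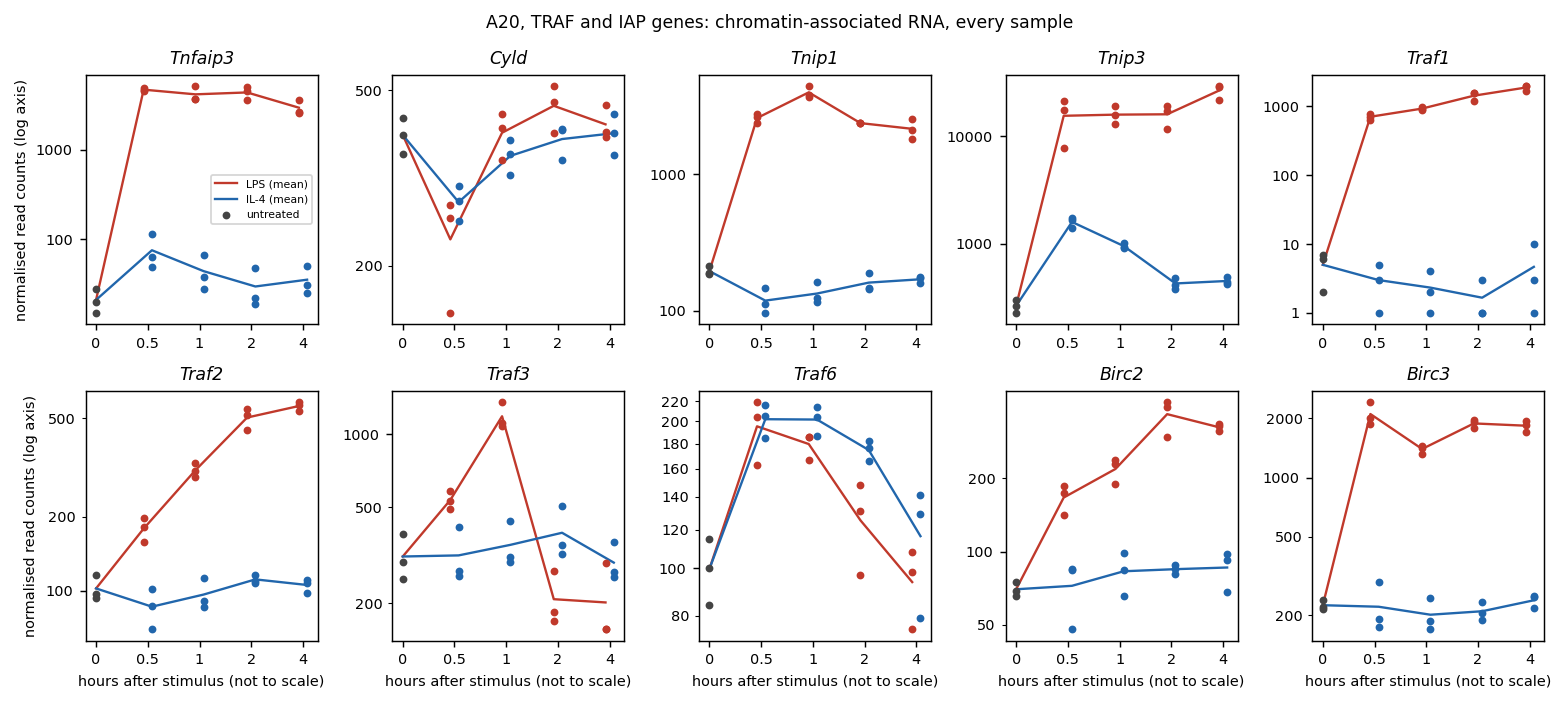
Normalised read counts (log axis, a separate range in each panel) of the 10 genes against hours after stimulus, with every sample as a point and the group means joined by lines, LPS in red, IL-4 in blue and untreated cells in grey at 0. The LPS points of Tnfaip3, Tnip1, Tnip3, Traf1, Traf2, Birc2 and Birc3 lie above all untreated points at each time, Cyld dips at 0.5 h with both stimuli, and Traf3 peaks at 1 h of LPS.

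The A20-binding adaptors differed from each other in their answer to IL-4. Tnip1 (chr11:54910787-54962940, minus strand) encodes ABIN1, which carries A20 to ubiquitin chains. Untreated samples held 211, 184 and 189 normalised read counts. LPS samples held 2613, 2751 and 2374 (0.5 h), 4440, 3824 and 3676 (1 h), 2354, 2382 and 2369 (2 h), and 2537, 2115 and 1799 (4 h). The 1 h samples were the highest, and no LPS sample overlapped the untreated ones.
The mean of Tnip1 rose 13.3-fold at 0.5 h and 20.4-fold at 1 h, with log2 fold changes of 3.72 and 4.34 (SE 0.12, adjusted p = 2.32e-12 and 3.66e-13). The steps up from 0.5 to 1 h (0.62, adjusted p = 0.000648) and down from 1 to 2 h (-0.74, adjusted p = 0.000143) both passed the test. The step from 2 to 4 h was -0.15 (adjusted p = 0.428), and -0.28 (adjusted p = 0.0357) with replicate 1 left out.

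With IL-4, Tnip1 moved the other way. Its values were 147, 96 and 112 (0.5 h), 161, 124 and 115 (1 h), 189, 147 and 145 (2 h), and 160, 176 and 173 (4 h). All samples of 0.5 and 1 h lay below the untreated range.
Tnip1 fell at 0.5 h (log2 -0.73, SE 0.16, adjusted p = 0.00599) and at 1 h (-0.56, adjusted p = 0.0246). These calls were lost without replicate 2 (adjusted p = 0.158 and 0.182) and without replicate 3 (adjusted p = 0.13 and 0.286), and the 1 h call also with no filter on low values (adjusted p = 0.0725), while without replicate 1 the 2 h difference of -0.35 became a call (adjusted p = 0.0185). The direct difference between LPS and IL-4 for Tnip1 was 4.45 at 0.5 h and 4.90 at 1 h (SE 0.15, adjusted p = 6.58e-17 and 5.94e-18).

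Tnip3 (chr6:65590398-65634040, plus strand) encodes ABIN3, a further A20-binding adaptor, and it reached the highest values of the 10 genes. Untreated samples held 226, 265 and 299 normalised read counts. LPS samples held 7792, 17483 and 21163 (0.5 h), 12857, 15622 and 19120 (1 h), 11785, 17059 and 19115 (2 h), and 21691, 28568 and 29384 (4 h). Replicate 1 was the lowest at all 4 LPS times, most of all at 0.5 h, and the 4 h samples exceeded all earlier ones.
The mean of Tnip3 rose 58.8-fold at 0.5 h (log2 5.76, SE 0.29, adjusted p = 4.42e-10) and stood 101-fold above untreated at 4 h (log2 6.65, adjusted p = 2.58e-11). The further step from 2 to 4 h was 0.75 (adjusted p = 0.0821), and was called with the replicate number as a block (adjusted p = 0.00106) and with replicate 1 left out (0.68, adjusted p = 0.000439). It was also called in the fit of all 27 samples (adjusted p = 0.0238).

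Tnip3 was also the member that IL-4 raised most. Its values were 1395, 1723 and 1654 (0.5 h), 937, 904 and 1007 (1 h), 415, 379 and 483 (2 h), and 485, 425 and 437 (4 h). The 4 IL-4 groups all lay above the untreated range, and the groups of 0.5, 1 and 2 h did not overlap each other.
The log2 fold changes of Tnip3 with IL-4 were 2.59, 1.85, 0.69 and 0.77 (SE 0.12), with adjusted p of 1.2e-08, 9.11e-08, 0.000541 and 0.000245. The declines from 0.5 to 1 h (-0.74, adjusted p = 0.0019) and from 1 to 2 h (-1.16, adjusted p = 4.63e-05) passed the test, the former losing its call without replicate 2 (adjusted p = 0.17) or replicate 3 (adjusted p = 0.0752). The decline from 0.5 to 1 h was also not called in the fit of all 27 samples (adjusted p = 0.0944). LPS exceeded IL-4 by 3.17 at 0.5 h and by 5.87 at 4 h (adjusted p = 1.45e-10 and 4.66e-16).

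Of the TRAF genes, Traf1 (chr2:34941750-34961772, minus strand) had the steepest rise. TRAF1 is the family member without a RING domain, and it joins TRAF2 and the cIAP proteins in receptor complexes. Untreated samples held 2, 7 and 6 normalised read counts. LPS samples held 697, 778 and 628 (0.5 h), 881, 921 and 960 (1 h), 1175, 1532 and 1541 (2 h), and 1964, 1945 and 1659 (4 h). Each later LPS group lay wholly above the one before it.
Means of Traf1 rose 140-fold at 0.5 h (log2 6.99, SE 0.26, adjusted p = 8.47e-12) and 371-fold at 4 h (log2 8.39, adjusted p = 6.85e-13). Because the untreated level was near 0, the fitted size rests on the number added before the log, and with 8 in place of 1 these log2 fold changes were 5.79 and 7.18. The steps between successive LPS times were 0.40, 0.61 and 0.40, none called. The step from 1 to 2 h had an adjusted p of 0.0721, and of 0.0239 with the replicate number as a block. Without replicate 1 the steps from 0.5 to 1 h (0.43, adjusted p = 0.00799) and from 1 to 2 h (0.71, adjusted p = 0.000209) were called. The same steps were called with a pseudocount of 8 (0.39 and 0.61, adjusted p = 0.044 and 0.00431). Sample weights also gave a call from 1 to 2 h (0.69, adjusted p = 0.0122).

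IL-4 left Traf1 between 1 and 10 normalised read counts in all 12 samples, a range that overlapped the untreated values at each time. No IL-4 difference of Traf1 was called, and the unadjusted 95% intervals were wide, from -2.47 to 0.21 at 2 h. With replicate 1 left out Traf1 was called lower at all 4 times (-1.40, -1.61, -1.90 and -1.40, with adjusted p of 0.0477, 0.0213, 0.00778 and 0.0349). These are differences between values of at most 7.

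Traf1 shares 10478 of its 20023 bases with Gm52552, a non-coding gene on the other strand (chr2:34951295-34984423). The library protocol does not mark the strand of the RNA and the use of strand in counting is not stated, so reads of the shared stretch cannot be told apart. Gm52552 was listed at 3, 7 and 5 in untreated samples, at 703, 686 and 628 at 0.5 h of LPS and at 1366, 1430 and 1211 at 4 h of LPS. Its group means thus rose beside those of Traf1.

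Traf2 (chr2:25517982-25546940, minus strand), the adaptor that brings the cIAP ligases to TNF receptors, climbed more slowly. Untreated samples held 97, 94 and 116 normalised read counts. LPS samples held 197, 182 and 157 (0.5 h), 306, 328 and 289 (1 h), 449, 544 and 516 (2 h), and 563, 581 and 536 (4 h). The groups of 0, 0.5, 1 and 2 h followed each other upward without overlap, and that of 4 h overlapped that of 2 h.
Log2 fold changes of Traf2 were 0.80, 1.58, 2.29 and 2.45 (SE 0.12), the largest adjusted p being 6.97e-05. The steps from 0.5 to 1 h (0.78, adjusted p = 9.24e-05) and from 1 to 2 h (0.70, adjusted p = 0.000249) passed the test. In the 12 IL-4 samples Traf2 ranged from 70 to 116, no time was called, and at 4 h the unadjusted 95% interval was -0.26 to 0.36. A pseudogene within Traf2, Gm13433, never exceeded 6.

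Traf3 (chr12:111166370-111267155, plus strand) was the member that LPS first raised and then lowered. TRAF3 holds back the non-canonical NF-κB route and serves the type I interferon response. Untreated samples held 388, 297 and 251 normalised read counts. LPS samples held 583, 530 and 492 (0.5 h), 1361, 1117 and 1088 (1 h), 272, 183 and 168 (2 h), and 292, 156 and 156 (4 h). The early groups lay wholly above the untreated samples, and those of 2 and 4 h lay mostly below them, with replicate 1 inside the untreated range.
Traf3 rose at 0.5 h (log2 0.80, SE 0.24, adjusted p = 0.0102) and at 1 h (1.94, adjusted p = 4.01e-06). Between 1 and 2 h it fell (-2.54, adjusted p = 3.75e-07), a 5.72-fold drop of the mean. The values of 2 and 4 h were called lower than untreated, by -0.59 (adjusted p = 0.0379) and -0.67 (adjusted p = 0.0218). These 2 calls are weak. They were lost with median-of-ratios scaling (-0.36 and -0.44, adjusted p = 0.267 and 0.176), with no filter on low values (adjusted p = 0.115 and 0.0774), without replicate 2 (adjusted p = 0.211 and 0.216) and without replicate 3 (adjusted p = 0.119 and 0.0932). The 0.5 h call was lost without replicate 2 (adjusted p = 0.107), without replicate 3 (adjusted p = 0.0896) and with equal totals (0.29, adjusted p = 0.308).

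Traf3 showed no called change with IL-4, the F test over the course having an adjusted p of 0.595, and of 0.0024 under the replicate block. Its 12 samples ranged from 256 to 506, and replicate 1 was the highest in each of the 9 groups. At 2 h the difference from untreated was 0.32 (adjusted p = 0.363), and it was called with the replicate number as a block (adjusted p = 0.0032) and without replicate 1 (0.29, adjusted p = 0.0344). The decline from 2 to 4 h (-0.40, adjusted p = 0.423) was called in the same settings (adjusted p = 0.00259 and 0.0388). Between the stimuli Traf3 was higher with LPS at 0.5 h (0.79, adjusted p = 0.00897) and 1 h (1.78, adjusted p = 1.03e-06), and lower at 2 h (-0.91, adjusted p = 0.00218) and 4 h (-0.59, adjusted p = 0.0363). The calls of 0.5 and 4 h were lost without replicate 2 (adjusted p = 0.14 and 0.251) and without replicate 3 (adjusted p = 0.0927 and 0.18), that of 0.5 h also with equal totals (adjusted p = 0.16), and that of 4 h also with median-of-ratios scaling (adjusted p = 0.332) and with no filter (adjusted p = 0.0604).

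A non-coding gene on the other strand, 4930595D18Rik (chr12:111159850-111184491), shares 18122 of the 100786 bases of Traf3, and the reads of that stretch could not be told apart either. It was listed at 96, 84 and 58 in untreated samples, at 365, 324 and 287 at 1 h of LPS and at 61, 40 and 40 at 2 h of LPS. Its means thus rose and fell beside those of Traf3.

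**Figure D3:**
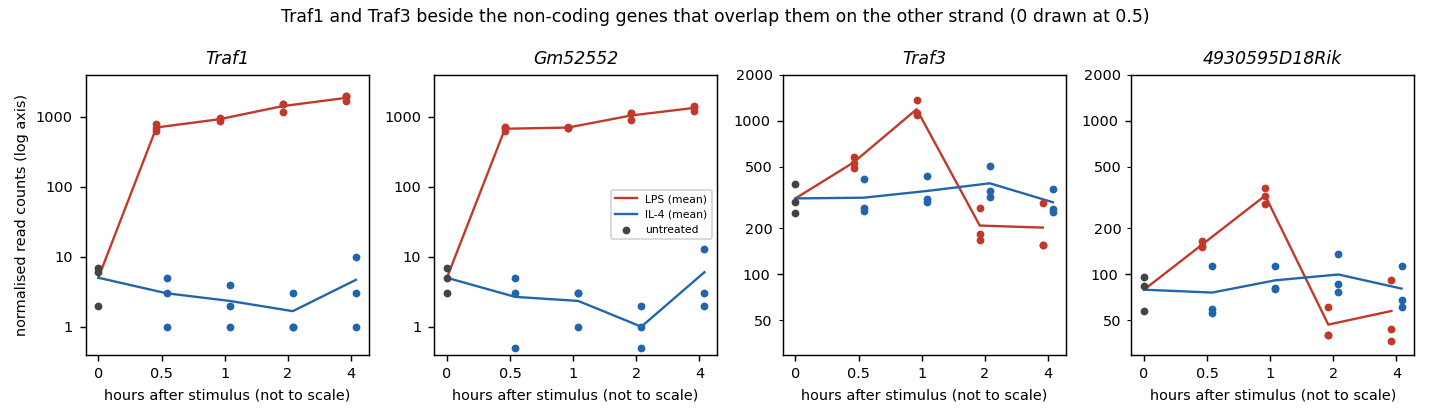
Normalised read counts (log axis, values of 0 drawn at 0.5) of Traf1 and Traf3 against hours after stimulus, each beside the non-coding gene that overlaps it on the other strand, with every sample as a point and means joined by lines, LPS in red, IL-4 in blue, untreated in grey. Gm52552 follows the rise of Traf1, and 4930595D18Rik follows the peak of Traf3 at 1 h of LPS.

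Traf6 (chr2:101678420-101701668, plus strand), the ubiquitin ligase directly below the Toll-like and IL-1 receptors, rose briefly with either stimulus. Untreated samples held 100, 84 and 115 normalised read counts. LPS samples held 163, 204 and 219 (0.5 h), 167, 186 and 186 (1 h), 97, 148 and 131 (2 h), and 75, 108 and 98 (4 h). IL-4 samples held 185, 216 and 205 (0.5 h), 204, 214 and 187 (1 h), 176, 166 and 182 (2 h), and 79, 141 and 129 (4 h). The early groups of both stimuli lay above all untreated samples, the LPS groups overlapped them again from 2 h and the IL-4 group at 4 h.
With LPS the log2 fold changes of Traf6 were 0.96, 0.85, 0.32 and -0.09 in time order (SE 0.19), with adjusted p of 0.000486, 0.000991, 0.148 and 0.684. With every library scaled to the same total the 1 h value lost its call (0.28, adjusted p = 0.212) and the 4 h value gained it (-0.70, adjusted p = 0.00433), whereas the 2 h value gained it with median-of-ratios scaling (0.56, adjusted p = 0.00695) and without replicate 1 (0.50, adjusted p = 0.00968). The step down from 1 to 2 h was called (-0.54, adjusted p = 0.03), but not without replicate 2 (adjusted p = 0.0792), without replicate 3 (adjusted p = 0.159) or with no filter (adjusted p = 0.0716). That from 2 to 4 h (-0.41, adjusted p = 0.135) was called with the replicate number as a block (adjusted p = 0.0424) and without replicate 1 (-0.43, adjusted p = 0.0424).

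With IL-4 Traf6 stood 1.02 above untreated at 0.5 h and at 1 h (SE 0.18, adjusted p = 0.00114 and 0.000836), 0.81 above it at 2 h (adjusted p = 0.00347) and 0.19 above it at 4 h (adjusted p = 0.498). The calls of 0.5 h (adjusted p = 0.0664) and 2 h (adjusted p = 0.0629) were lost without replicate 2, and that of 2 h without replicate 3 (adjusted p = 0.0517). The 4 h value was called without replicate 1 (0.45, adjusted p = 0.035). The fall from 2 to 4 h, -0.62 (adjusted p = 0.059), was called with the replicate number as a block (adjusted p = 0.0212).
Traf6 differed between the stimuli at 2 h, where LPS was lower (log2 -0.50, SE 0.19, adjusted p = 0.0218). That call was lost with median-of-ratios scaling (-0.23, adjusted p = 0.214) and without replicate 3 (adjusted p = 0.124), and a call at 4 h appeared without replicate 1 (-0.39, adjusted p = 0.0149). At 0.5 h the difference was -0.06 with an unadjusted 95% interval from -0.44 to 0.33. With equal totals LPS was called lower at 0.5, 1 and 4 h as well (-0.44, -0.64 and -0.90, adjusted p = 0.0449, 0.00383 and 0.000135).

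The IAP genes Birc2 (chr9:7818226-7837057, minus strand) and Birc3 (chr9:7848699-7873170, minus strand) are paralogs 11641 bases apart and encode cIAP1 and cIAP2, ubiquitin ligases that the TRAF proteins bring to TNF receptors. Untreated samples of Birc2 held 69, 75 and 66 normalised read counts. LPS samples of Birc2 held 141, 174 and 185 (0.5 h), 189, 228 and 238 (1 h), 296, 393 and 411 (2 h), and 327, 333 and 312 (4 h). The groups climbed without overlap until 2 h, and that of 4 h lay within the range of 2 h.
For Birc2 the log2 fold changes were 1.23, 1.62, 2.36 and 2.20 (SE 0.15), the largest adjusted p being 5.69e-06. The step from 1 to 2 h passed the test (0.74, adjusted p = 0.000781). That from 0.5 to 1 h passed narrowly (0.39, adjusted p = 0.0399), and not without replicate 2 (adjusted p = 0.211), without replicate 3 (adjusted p = 0.156), with equal totals (adjusted p = 0.101) or with no filter (adjusted p = 0.0678). The same step also did not pass in the fit of all 27 samples (adjusted p = 0.0894). From 2 to 4 h the step was -0.16 (adjusted p = 0.491), and -0.32 (adjusted p = 0.0429) without replicate 1.

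Birc3 was higher than Birc2 in untreated cells and reached its top level at once. Untreated samples of Birc3 held 240, 220 and 215 normalised read counts. LPS samples held 2418, 1873 and 2017 (0.5 h), 1453, 1320 and 1419 (1 h), 1788, 1910 and 1954 (2 h), and 1935, 1859 and 1710 (4 h). The 1 h samples were lower than those of any other LPS time.
The mean of Birc3 rose 9.35-fold at 0.5 h (log2 3.21, SE 0.11, adjusted p = 2.32e-12). It dipped from 0.5 to 1 h (-0.58, adjusted p = 0.000345) and recovered from 1 to 2 h (0.43, adjusted p = 0.00382), to 3.02 above untreated at 4 h. The recovery was not called without replicate 2 (adjusted p = 0.111) or without replicate 3 (adjusted p = 0.0825).

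With IL-4 neither IAP gene had a called change. Birc2 ranged from 48 to 99 and Birc3 from 170 to 296 over the 12 IL-4 samples. At 4 h the unadjusted 95% interval of the log2 difference from untreated was -0.18 to 0.73 for Birc2 and -0.30 to 0.46 for Birc3. LPS exceeded IL-4 by 1.23 to 2.09 for Birc2 and by 2.81 to 3.27 for Birc3 across the 4 times, the largest adjusted p being 8.17e-06 and 1.29e-13.

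Levels can be compared between the genes only per length, here as normalised read counts per kilobase of gene span. In untreated cells Birc3 (9.19 ± 0.541, SD, n = 3), Cyld (7.21 ± 0.674) and Tnip3 (6.03 ± 0.837) were the highest and Traf1 (0.25 ± 0.132) the lowest. After 4 h of LPS the order was led by Tnip3 (608 ± 96.8), Tnfaip3 (203 ± 39.5), Traf1 (92.7 ± 8.53) and Birc3 (75 ± 4.68), followed by Tnip1 (41.2 ± 7.1), Traf2 (19.3 ± 0.782) and Birc2 (17.2 ± 0.574). Cyld (7.62 ± 0.706), Traf6 (4.03 ± 0.728) and Traf3 (2 ± 0.779) were lowest. Cyld thus stood near the top of the untreated order and near the bottom of the LPS order, at 7.21 and 7.62.

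The 9 groups of a gene were also put in order of level, and neighbours in that order were tested in a fit of all 27 samples. The order came from the same values, so these tests are not independent of it. For Tnfaip3 no LPS group was called different from the next in this order, which does not show that their levels were equal, and the gap from the lowest LPS group to the highest IL-4 group was 5.35 on the log2 scale (adjusted p = 1.23e-12). For Tnip1 the 1 h LPS group stood above the next one by 0.62 (adjusted p = 0.00103), and for Tnip3 the 4 h LPS group did so by 0.75 (adjusted p = 0.0238). For Cyld no neighbouring pair in the order passed the test, the largest gap being 0.35. Groups further apart could still differ. The lowest, 0.5 h of LPS, was called below untreated in the LPS fit (-0.82, adjusted p = 0.00141).

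Across the 9 group means of log2 values, Tnfaip3 and Birc3 had a Pearson r of 0.98, Traf1 and Birc3 of 0.99, and Birc2 and Traf2 of 0.99, whereas Cyld with Tnfaip3 had -0.06 and Traf3 with Traf2 -0.11. The group means share libraries and the large split between LPS and other samples, so these are descriptions without a p. The genes most like a member were named by the same measure among about 8664 genes. For Tnfaip3 these were Cflar (r = 0.996), Mrpl39, Nfkb2, Nfkbia and Ccl9, with 240 genes over 0.95. For Tnip3 they were Lacc1 (0.994), Ccl12, Tnfrsf22, Thrap3 and Mefv, with 106 genes over 0.95. For Traf1 they were Acod1 (0.998), Cxcl10, Mir155hg, Art3 and Gm41235, with 273, and for Birc3 Sod2 (0.997), Nfkbia, Ccrl2, Astl and Slc39a1, with 202.

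A further 40 ubiquitin regulators of the pathway were listed by role, of which 39 were tested (Peli3 was too low). Over the LPS course 38 were called and 1, Sharpin, was not, where 87.6% of all tested genes were called. Taking each gene by its largest difference from untreated, 22 went up and 16 down, of which 22 and 15 passed the test at that time. This split is given for the reported scaling only, where the median of all tested genes lay between -0.24 and -0.30 at the LPS times. The same split over all tested genes is not given. In time order 12, 18, 20 and 20 of the 39 were called higher and 13, 12, 8 and 8 lower. The shares of all genes were 19.6%, 24.8%, 26.9% and 25.9% higher, and 34.4%, 39%, 39% and 37.6% lower. Rbck1, Otud7b, Otub2, Usp18 and Tifa were called in both directions at different times, and Otub1 (-0.57 at 0.5 h, adjusted p = 0.0712) passed at none. By role and in the same sense, 3 went up and 1 down of 5 genes of the linear ubiquitin chain assembly complex and its partners, 3 and 1 of 4 conjugating enzymes, 4 and 5 of 9 tested TRAF, IAP and E3 ligase genes, 4 and 3 of 7 deubiquitinases, and 8 and 6 of 14 ubiquitin-binding and TRAF adaptors. Their median log2 fold change was -0.03, 0.28, 0.60 and 0.52 at the successive LPS times, below the medians of the 10 members. Both lists were written with earlier results of these data known, so the comparison of medians is a description only.
The largest rises were those of Usp18, which removes the ubiquitin-like ISG15, of Sqstm1, the ubiquitin-binding autophagy receptor p62, and of Peli1, a Pellino ubiquitin ligase. Usp18 was first called lower at 0.5 h (log2 -1.14, adjusted p = 0.00262) and then rose from 54.7 ± 13.2 to 4013 ± 386 normalised read counts at 4 h (log2 6.19, adjusted p = 2.79e-11). Sqstm1 rose from 134 ± 12.7 to 2511 ± 460 at 0.5 h (log2 4.20, adjusted p = 4.86e-10), and Peli1 from 836 ± 100.01 to 14964 ± 1035 at 2 h (log2 4.17, adjusted p = 1.21e-10). Peli2, another Pellino ligase, fell most, from 672 ± 70.0 to 6.67 ± 4.73 at 4 h (log2 -6.63, adjusted p = 4.94e-11). Traf3ip3 fell from 119 ± 21.2 to 8 ± 4.36 at 2 h (log2 -3.83, adjusted p = 1.84e-07). Tab1, which encodes a binding partner of the kinase TAK1, fell from 116 ± 8.72 to 21.3 ± 1.53 at 1 h (log2 -2.39, adjusted p = 3.81e-08). Peli1 and Peli2, which are closely related, thus moved in opposite directions.

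Over the IL-4 course 20 of the 39 were called and 19 were not, where 40.3% of all tested genes were called. The number called was 7 without replicate 2 and 7 without replicate 3. By the largest difference from untreated 8 went up and 12 down, of which 8 and 9 passed the test at that time. In time order 4, 5, 6 and 6 of the 39 were called higher and 2, 4, 7 and 9 lower. The shares of all genes were 8.15%, 11.1%, 14.3% and 13.4% higher, and 8.14%, 9.83%, 13.2% and 12.5% lower. Itch, Otud5 and Ikbkg, named after their values were seen, passed at no single time, and Tank was called higher at 0.5 h (0.76, adjusted p = 0.000141) and lower at 2 h (-0.39, adjusted p = 0.0111) and 4 h (-0.30, adjusted p = 0.0451). Traf5, a TRAF adaptor related to TRAF2, rose from 141 ± 14.7 to 524 ± 46.1 at 2 h of IL-4 (log2 1.89, adjusted p = 1.25e-07), Otulin, a deubiquitinase for linear chains, from 170.3 ± 14.98 to 383 ± 41.5 at 0.5 h (log2 1.16, adjusted p = 6.6e-06), and Rbck1, which encodes the HOIL-1 subunit of the complex that makes linear chains, from 127 ± 10.6 to 221 ± 13.5 at 2 h (log2 0.80, adjusted p = 1.91e-05). Peli2 (-1.15, adjusted p = 1.45e-05), Sqstm1 (-0.87, adjusted p = 0.00147) and Peli1 (-0.85, adjusted p = 1.28e-05) fell most, all at 2 h, the call of Sqstm1 being lost without replicate 2 (adjusted p = 0.0553). Traf5 and Otulin fell with LPS, the former by -2.21 at 0.5 h (adjusted p = 2.95e-08) and the latter by -0.79 at 2 h (adjusted p = 0.00013).

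**Figure D4:**
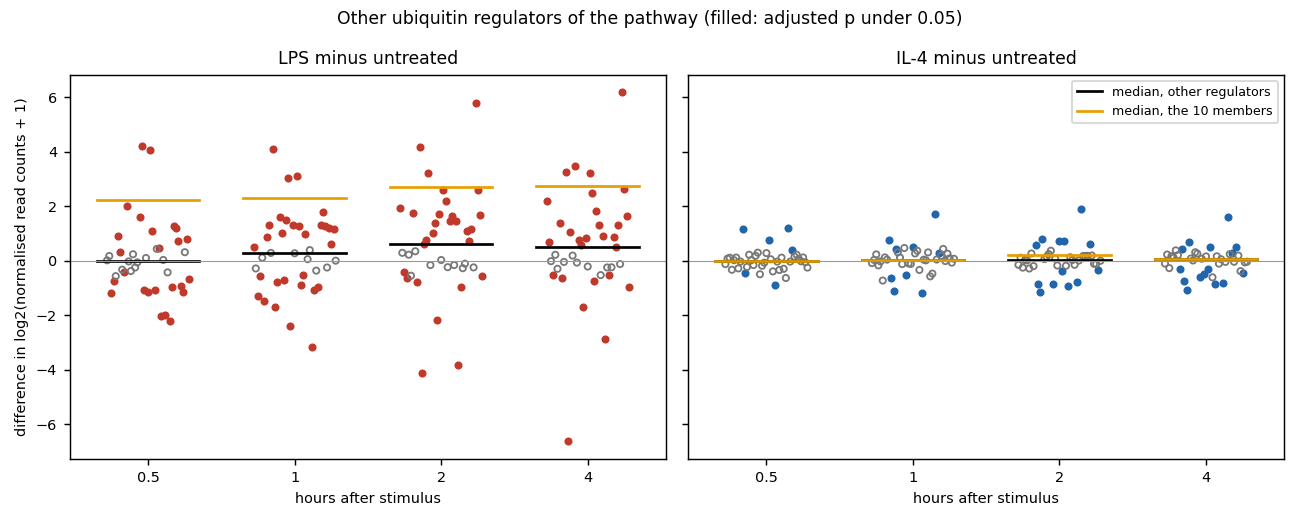
Log2 differences from untreated of the 39 tested further ubiquitin regulators at each time of LPS (left) and IL-4 (right), filled points having an adjusted p under 0.05, with the median of these genes as a black line and the median of the 10 members as an orange line. The members' median lies between 2.22 and 2.73 with LPS, above the other regulators' median of -0.03 to 0.60, and both lie near 0 with IL-4.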

How the data were processed

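Chromatin-associated RNA-seq of 27 BMDM samples was used, 3 replicates in each of 9 groups taken from the sample labels. Per the study's methods, the authors trimmed single-end reads and mapped them to mm10 with TopHat2 2.1.1, removed multi-mapping and blacklisted reads (bedtools 2.29.2), counted reads per gene on the GRCm38.p6 RefSeq annotation and scaled libraries on invariant genes. DESeq2 and R 3.6.2 are named in the submitters' processing notes. The deposited values are normalised counts rounded to whole numbers, handled as a score rather than as raw counts, so no count model was fitted. Reads mapping to several places were dropped, which can lower counts of the paralogs Birc2 and Birc3 in near-identical stretches.

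Genes with at least 10 in at least 3 samples were tested with limma 3.58.1 in R 4.3.3 (mean-variance trend, log2 of the value plus a pseudocount of 1), with a fit for each course with its untreated samples and another of all 27 samples for LPS against IL-4 and for the order of levels. P-values are two-sided, Benjamini-Hochberg adjusted over 13901 genes, threshold 0.05, and intervals are 95% and unadjusted. The study's impulse model over time was not run. The labels do not say that replicates were separate cultures or animals, so p-values measure the spread between these samples. The replicate numbers were taken to pair samples across groups, on these grounds. The deviations of same-numbered samples from their group means correlated in all 108 pairs of groups and numbers (lowest r = 0.20, median 0.49, 4770 genes with a mean of at least 100). For 25 of 27 samples, the mean correlation with the samples of other groups was highest for their own number. The fit without this block is the reported one.

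The 10 members and all lists were chosen with earlier results of these data known. Named were all 10 members, the genes overlapping them, the 5 genes most like Tnfaip3, Tnip3, Traf1 and Birc3 (group mean of at least 50 in some group), and for each stimulus the 3 further regulators with the largest rises and the 3 with the largest falls among those called over the course with a mean of at least 50 in the higher group. The scripts were tested on simulated data. Alternatives were other scalings, pseudocount 8, other filters, a replicate block, each replicate left out, replicates 2 and 3 averaged, sample weights, robust estimation and a fit of all 27 samples.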

Additional observations from a re-analysis of the deposited data

Results flagged for a closer look

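Tnip1 differed between the stimuli in opposite directions from untreated. It was picked for these opposite calls, so the direct difference, mostly the LPS rise, is no separate test of them. At 0.5 h it was 3.72 higher with LPS and 0.73 lower with IL-4, a difference of 4.45 on the log2 scale (adjusted p = 6.58e-17), and at 1 h the difference was 4.90 (adjusted p = 5.94e-18), in limma's fit of all 27 samples. The IL-4 calls behind this were lost without replicate 2 (adjusted p = 0.158 at 0.5 h and 0.182 at 1 h), without replicate 3 (0.13 and 0.286) and with replicates 2 and 3 averaged (0.126 and 0.21), and that of 1 h with no filter on low values (0.0725).

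Traf3 was called above untreated at 0.5 and 1 h of LPS and below it at 2 and 4 h, and the times differed in the fit of all 27 samples. The calls below untreated were lost at 2 and 4 h with median-of-ratios scaling (adjusted p = 0.267 and 0.176), with no filter (0.115 and 0.0774), without replicate 2 (0.211 and 0.216), without replicate 3 (0.119 and 0.0932) and with replicates 2 and 3 averaged (0.156 and 0.141). The 0.5 h call was lost with equal totals (0.308), without replicate 2 (0.107), without replicate 3 (0.0896) and with these averaged (0.0949). The 2 h group was lower than the 0.5 h group by -1.39 (adjusted p = 2.77e-05) and than the 1 h group by -2.54 (adjusted p = 6.4e-09). The 4 h group was lower than these by -1.47 (adjusted p = 1.37e-05) and -2.61 (adjusted p = 2.74e-09). In alternatives added after seeing the data, without replicate 2 the Traf3 difference between 2 and 0.5 h was -1.32 (adjusted p = 0.00669), without replicate 3 it was -1.31 (adjusted p = 0.00366), and without replicate 1 it was -1.54 (adjusted p = 5.47e-12). Only members called in opposite directions were searched for such differences, so the differences are no separate tests of those calls. Groups of 3 were too small for a search for outlying samples.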

How the results depend on the processing

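The total counts of the 10 members called with LPS and between LPS and IL-4 stayed within 1.5 times of the reported ones under each alternative tried. Their split by direction moved with the scaling. At 2 h of LPS 7 were higher and 1 lower as reported, 9 and 0 with median-of-ratios scaling, and 7 and 2 with equal totals. In the same order the split was 7 and 1, 7 and 0, and 7 and 3 at 4 h of LPS. For LPS against IL-4 at 4 h it was 7 and 1, 8 and 0, and 7 and 3. The counts with IL-4 rested on the replicates. Leaving out 1 replicate gave 2 to 9 members over the IL-4 course in place of 5, 1 to 6 at 0.5 h in place of 5, 2 to 5 at 1 h in place of 3, 1 to 5 at 2 h in place of 2, and 1 to 3 at 4 h in place of 1. With replicates 2 and 3 averaged the counts were 2 over the course and 2 at 0.5 h. At 4 h the count was 2 with the replicate block and 2 with sample weights. Of the 39 other regulators, 20 were called over the IL-4 course, and 7 to 23 without 1 replicate and 6 with replicates 2 and 3 averaged (the alternatives for these genes were added after seeing the data).

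The direction of Cyld after LPS changed with the scaling. With equal totals Cyld was -0.57, -0.44 and -0.53 at 1, 2 and 4 h against untreated, and -0.38 and -0.55 against IL-4 at 2 and 4 h, each called. With median-of-ratios scaling Cyld was called the other way, at 0.46 at 2 h against untreated and 0.45, 0.52 and 0.35 at 1, 2 and 4 h against IL-4. The median of all genes at the 4 LPS times was between -0.73 and -0.91 with equal totals and between -0.01 and -0.06 with median-of-ratios scaling. Of the genes called at these times, 36.3% to 40.8% were higher in the reported fits, 18.3% to 23.7% with equal totals and 48.2% to 49.3% with median-of-ratios scaling. The replicate block changed no member's call except those given with the results. In the tests of single times and steps it added 14 calls and removed 0. Depth is unknown from normalised values, and the lowest genes, Traf1 without LPS and Tnfaip3 without LPS, are the least precise.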
